A study of Mus musculus with 13 samples.

Results

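The proteasome genes described here are the 43 genes whose symbols mark them as subunits, assembly chaperones or alternative partners of the constitutive proteasome, of 18818 genes measured. They were chosen by name alone from probe sets (groups of array probes read as 1 value) that carry exactly 1 gene symbol. Where several probe sets read a gene, the brightest on average was taken, and the inducible subunits Psmb8, Psmb9 and Psmb10 were left out. The name rule found 7 genes of the α ring and 8 of the β ring of the 20S core, and 4 chaperones that build it. Of the 19S cap it found 6 ATPases, 3 other base subunits, 8 lid subunits and 3 chaperones. The alternative activators Psme3 and Psme4 and the inhibitor Psmf1 were also found. Psmc3ip matched the name rule only by spelling: its product acts in meiotic recombination and is no subunit. Psma4 is read by a probe set shared with another gene and was not used here.

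RNA came from epididymal white fat of male mice on 13 Affymetrix arrays. Mice of 6 weeks were put on a high fat diet for 4 days and were 6.5 weeks old when the fat was taken. They were injected into the peritoneum on days 0 and 2 with α-galactosylceramide (αGalCer, 100 ng per g body weight), a glycolipid that activates natural killer T cells when CD1d presents it, or with the vehicle pyridine. The 4 groups were wild type C57/BL6 after vehicle (3 arrays) or αGalCer (4 arrays), and CD1d knockout, strain B6.129S6-Cd1d1/Cd1d2tm1spb/J, after vehicle (3 arrays) or αGalCer (3 arrays). The knockout removes CD1d from the whole animal, wild types and knockouts were bred in 1 facility, and no source used here states that they were littermates. The labels do not say whether replicates were separate mice, so every p-value here reflects only how far these arrays spread, part of which may be technical.

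The 26S proteasome degrades proteins tagged with ubiquitin. Its 20S core is a barrel of α rings, which form the gate, and β rings, where Psmb6, Psmb7 and Psmb5 hold the caspase-like, trypsin-like and chymotrypsin-like cutting sites. The 19S cap binds and unfolds the tagged protein with its ATPases and removes ubiquitin. After interferon γ, new cores carry Psmb9, Psmb10 and Psmb8 in place of Psmb6, Psmb7 and Psmb5, and are then called immunoproteasomes. In fat, the transcription factor NFE2L1 is known as an activator of proteasome genes that sustains proteasome capacity under load.

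Values are log2 expression, so a difference of 1 is a 2-fold change, and levels of different genes are not compared because each probe set has its own response. Adipocyte markers were present in all groups and averaged 11.88 to 11.99 over 7 genes in wild type fat after vehicle. Some arrays were high in markers of other tissue. The list of 10 skeletal muscle genes averaged 9.35, 7.36 and 9.45 in knockout vehicle replicates 1 and 2 and knockout αGalCer replicate 3, against 5.21 to 6.12 in the other arrays. The list of 9 epithelium genes averaged 7.83, 8.07 and 8.88 in wild type vehicle replicates 1 and 3 and knockout vehicle replicate 1, and 4.84 to 6.74 elsewhere. For 6 epididymis genes the mean was 5.23 in replicate 3 of the wild type vehicle group and 3.44 to 3.81 elsewhere. The targeted gene Cd1d1 lay at 10.69 ± 0.15 (SD, n = 3) and 3.73 ± 0.29 (SD, n = 3) after vehicle in wild type and knockout.

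In wild type fat, αGalCer raised 13 of the 43 genes and lowered none by the limma fit at an adjusted p under 0.05. Over all genes 41.9% were called, with 19.8% higher and 22.0% lower. At an unadjusted p under 0.05, 14 members were higher and 1 was lower, where 22.4% and 25.5% of all genes were. Changes above 0 were seen in 33 members, against 47.1% of all genes. All αGalCer arrays lay above all vehicle arrays for 14 members, against 21.7% of all genes. The changes were mostly small: the median was 0.15, against -0.02 for all genes, and the range ran from -0.27 for Psme4 to 1.14 for Psmg4. The genes that rose were Psma1, Psma2, Psma5, Psma7, Psma8, Psmb2, Psmb4, Psmb6, Psmg2, Psmg4, Psmc3, Psmd8 and Psmd10. They made up 8 of the 15 core genes, 2 of the 4 core chaperones, 2 of the 17 ATPase, base and lid genes and 1 of the 3 cap chaperones. No test compared these roles. Markers of other cells moved in the same arrays, with 8 of 8 macrophage, 5 of 5 T cell, 6 of 6 cytotoxic cell and 7 of 7 cell division genes higher, and 7 of 7 adipocyte and 5 of 5 endothelial genes lower. The macrophage list averaged 8.62 to 9.45 after vehicle and 10.93 to 11.18 after αGalCer, and the adipocyte list 11.88 to 11.99 and 9.91 to 10.78. Their part in the rise of proteasome genes was not tested, and in whole tissue a change in the number of cells of a type and a change in RNA per cell cannot be told apart. The epithelium list fell too (7 of 9 genes). Without wild type vehicle replicate 2, the vehicle array of wild type lowest in epithelium genes, 8 of the 13 calls were kept. Without the 3 arrays highest in epithelium genes, that replicate was the only wild type vehicle array left. The median was then 0.17, a value that rests on 1 vehicle array. Without wild type vehicle replicate 3, the array high in epididymis genes, the median was 0.08 and 9 members were called. Without αGalCer replicate 1 of wild type the median was 0.09, with 9 members higher and Psmb7 and Psmd5 lower. The share of all genes called was not read from these fits with arrays left out, so their counts of members cannot be set against it.

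**Figure D1:**
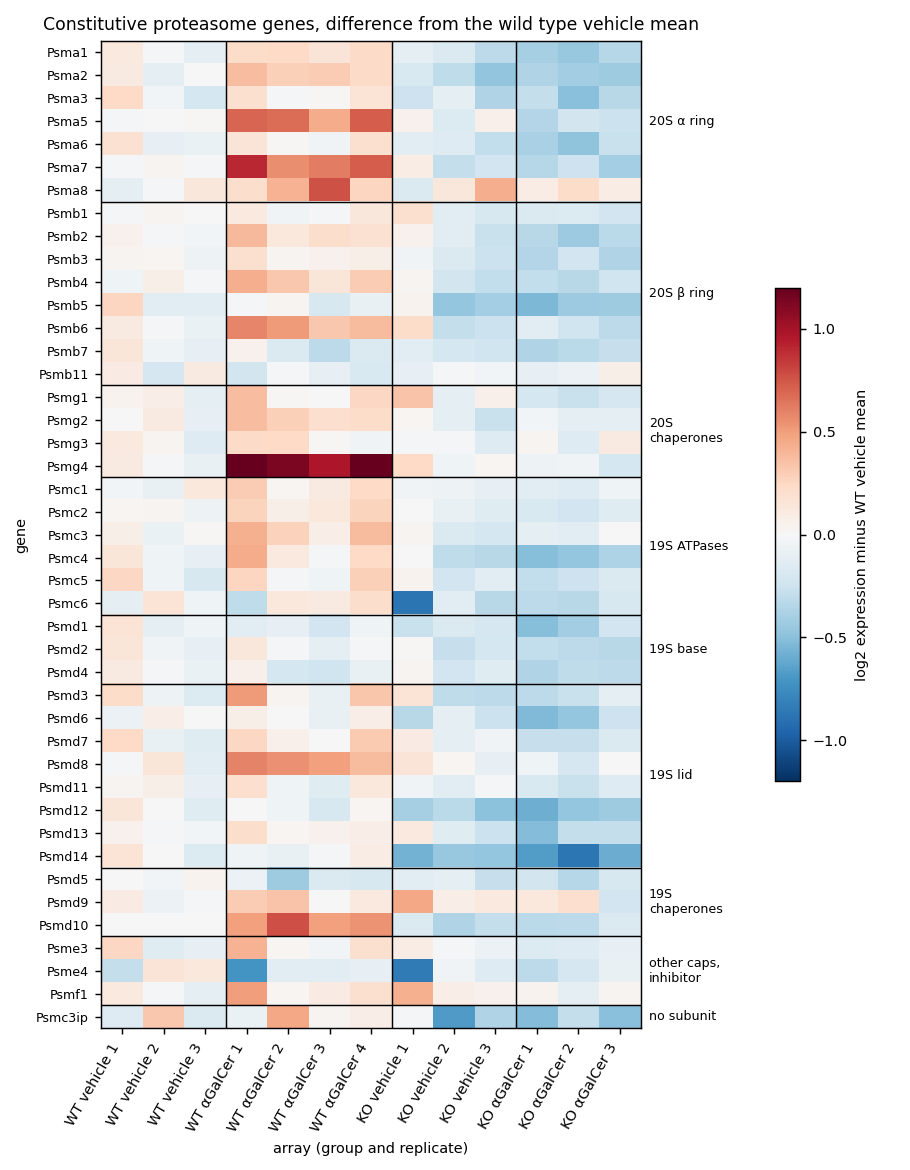
Each row is 1 of the 43 genes, ordered by role, and each column 1 of the 13 arrays. Colour gives the log2 level minus the mean of the wild type vehicle arrays, red for higher and blue for lower. Psmg4, Psma7, Psma5, Psmd10 and Psmd8 are red in all 4 wild type αGalCer arrays. Most knockout arrays, above all those after αGalCer, are mostly pale blue, while knockout vehicle replicate 1 holds both red and blue.

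Psmg4, which encodes a small chaperone (PAC4) that helps the α ring to form, changed most. It read 7.90, 7.78 and 7.70 in wild type fat after vehicle and 9.07, 8.93, 8.76 and 8.99 after αGalCer. Every αGalCer array thus lay about 1 unit above the vehicle arrays. The change was 1.14 ± 0.10 (SE), a 2.21-fold rise (adjusted p = 1.32e-06 by limma). Psmg2, another chaperone of the ring, went from 7.66 to 7.87 after vehicle to 7.97 to 8.13 after αGalCer. Its change of 0.27 ± 0.09 had an adjusted p of 0.0278 in the limma fit. Psmg1, the partner of Psmg2 in a dimer, had a change of 0.16 ± 0.12 and Psmg3, the partner of Psmg4, one of 0.11 ± 0.11, and neither passed. Psmg3 lay at 4.94 after vehicle, a low value for which no detection call was used. Both of its groups overlapped, from 4.78 to 5.06 and from 4.90 to 5.18.

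In the α ring 5 of 7 genes rose and all 7 changes were above 0, with a median of 0.30. Psma7 read 8.61, 8.65 and 8.60 after vehicle and 9.52, 9.17, 9.24 and 9.34 after αGalCer. This is a rise of 0.70 ± 0.11, or 1.63-fold (adjusted p = 0.000125, limma). Psma5 stood as tightly in the vehicle arrays, at 8.31, 8.32 and 8.34, and reached 9.02, 8.99, 8.77 and 9.05. It rose by 0.64 ± 0.09 (adjusted p = 6.43e-05, limma), and its other probe set gave the same 0.64. Psma2 rose by 0.30 ± 0.09 and Psma1 by 0.21 ± 0.07, both with groups that did not overlap. Psma8, the form of the α ring known from testis, was called with a change of 0.41 ± 0.15 from the low level of 3.93. Psma3 (0.09 ± 0.11, with 0.09 in each of its 3 probe sets) and Psma6 (0.08 ± 0.09) did not pass. Several probe sets read Psma3, Psma5, Psmb1, Psmb3, Psmc1 and Psmd2, and which transcripts each of them reads was not tested. For Psmd2 they gave changes of -0.01 and 0.11.

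In the β ring 3 of 8 genes rose. Psmb6, the caspase-like subunit, read 9.49, 9.36 and 9.31 after vehicle and 9.97, 9.90, 9.71 and 9.77 after αGalCer, so that the groups were apart. It rose by 0.45 ± 0.12, or 1.37-fold (adjusted p = 0.00786, limma). The other cutting subunits were not called. Psmb5 read 11.86, 11.47 and 11.47 and then 11.58, 11.63, 11.40 and 11.51, a change of -0.07 with a 95% interval of -0.34 to 0.20. Psmb7 changed by -0.15, with a 95% interval of -0.35 to 0.04. Both intervals include 0 and small changes on either side of it. Among the structural β subunits Psmb4 (0.30 ± 0.09) and Psmb2 (0.23 ± 0.08) rose, while Psmb3 (0.09 ± 0.07) and Psmb1 (0.05 ± 0.09) did not pass. Psmb11, the β subunit of thymic epithelium, stood at the low level of 4.56 and changed by -0.13 ± 0.10. The inducible counterparts changed far more: Psmb9 by 2.26 ± 0.16, Psmb10 by 1.94 ± 0.11 and Psmb8 by 2.86 ± 0.17. The genes of the interferon-induced cap PA28, Psme1 and Psme2, rose by 0.96 ± 0.09 and 0.84 ± 0.07.

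**Figure D2:**
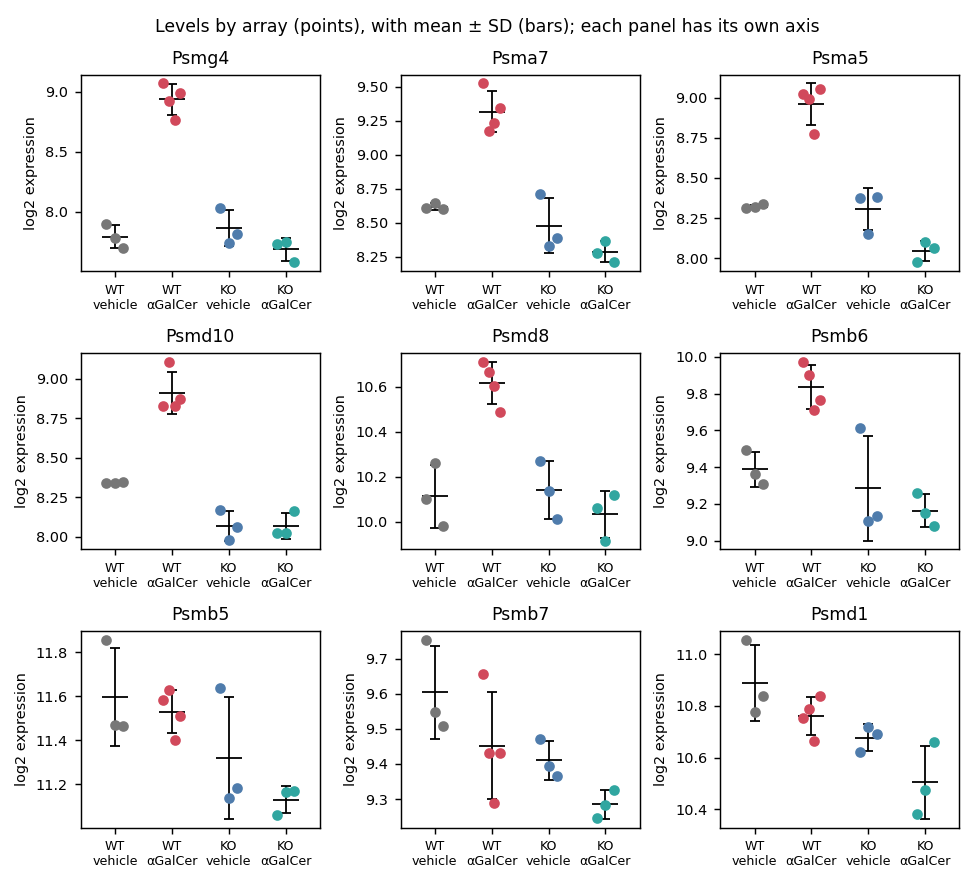
Log2 level of 9 genes in each array (points) with the group mean and SD (bars), on an axis of its own for each gene. In Psmg4, Psma7, Psma5, Psmd10, Psmd8 and Psmb6 the 4 wild type αGalCer arrays stand above the 3 vehicle arrays, and in Psmb5, Psmb7 and Psmd1 they overlap.

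Of the 19S cap, Psmd8, a lid subunit needed late in assembly of the lid, rose most. It read 10.10, 10.26 and 9.98 after vehicle and 10.71, 10.66, 10.61 and 10.49 after αGalCer. The rise was 0.50 ± 0.09, or 1.42-fold (adjusted p = 0.000519, limma). The other 7 lid genes were not called, and Psmd14, the enzyme that cuts ubiquitin chains off, was level at 10.36 and 10.35 (change -0.02 ± 0.09). All 6 ATPase genes had changes above 0, from 0.03 for Psmc6 to 0.29 ± 0.10 for Psmc3, the only one called (adjusted p = 0.0282, limma). Psmc3 read 8.49, 8.34 and 8.44 and then 8.85, 8.70, 8.51 and 8.80, and its lowest αGalCer array lay only just above its highest vehicle array. The base scaffolds Psmd1 (-0.13 ± 0.08) and Psmd2 (-0.01 ± 0.09) and the ubiquitin receptor Psmd4 (-0.12 ± 0.09) did not pass. In Psmd1 the vehicle arrays ran from 10.78 to 11.06 and the αGalCer arrays from 10.66 to 10.84, so they overlapped.

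Of the 3 chaperones of the 19S base only Psmd10 was called. Psmd10 (gankyrin), which binds an ATPase during assembly and is also known as an oncoprotein, read 8.34 in each of the 3 vehicle arrays. After αGalCer it read 8.83, 9.11, 8.83 and 8.87. It rose by 0.57 ± 0.09, or 1.49-fold (adjusted p = 0.000138, limma). Psmd5 was the only member whose αGalCer arrays all lay below the vehicle arrays, at 8.47 to 8.82 against 8.86 to 8.93. Its change of -0.22 ± 0.09 did not pass (adjusted p = 0.0716, limma), although it was called lower with array weights (adjusted p = 0.038, limma), with repeated quantile normalization (0.0438) and without wild type αGalCer replicate 1 (0.0328). Over all genes 25.0% were separated in that direction. Psmd9 had a change of 0.19 ± 0.14. The nuclear activators Psme3 (0.15 ± 0.11) and Psme4 (-0.27 ± 0.20) and the inhibitor Psmf1 (0.20 ± 0.12) did not pass either.

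Genes outside the name rule that act on the same particle were read from a list of 17. In wild type fat 3 of them rose and 5 fell, where 19.8% and 22.0% of all genes did. Pomp, which assists the maturation of the core, rose by 0.69 ± 0.10 (adjusted p = 9.41e-05, limma). Sem1, the smallest lid subunit, rose by 0.64 ± 0.08 and Uchl5, a ubiquitin-cutting enzyme of the cap, by 0.70 ± 0.18. Nfe2l1, the activator named above, fell by 0.51 on the log2 scale (SE 0.11, adjusted p = 0.00251, limma), and Ngly1, which removes sugars from the NFE2L1 protein, by 0.68 (SE 0.16). The shuttle factors Ubqln1 and Ubqln4 fell by 0.45 and 0.52, and the ligase Ube3c by 0.23. The related activator Nfe2l2 had a change of 0.19 ± 0.10 (adjusted p = 0.154, limma).

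NFE2L1 and NFE2L2 bind the antioxidant response element, so the promoters were searched for its core TGACNNNGC on both strands, and for the CCAAT box of NF-Y. RefSeq promoters (GRCm38.p6) were held for 35 of the 43 genes, and the 250 bases before the start were read. The element was found in 5 of 35 genes, 14.3%, against 11.5% of 27025 genes with such an entry. It was found in 1 of 9 genes that rose and in 4 of 26 that were not called. CCAAT was found in 14 of 35 genes, 40.0%, against 37.5% of all. The element was held by Psmb5, Psmb6, Psmc6, Psmd9 and Psmd12. These are matches of letters and show no binding. The 4 promoters below belong to Psmb6 and Psmb5, cutting subunits that hold the element (Psmb7 was not searched), to Psmd10, which held 3 CCAAT boxes, and to Psmg4, which held neither motif. Psmb6 (chr11:70525107-70525356, plus strand) and Psmb5 (chr14:54617996-54618245, minus strand) hold the element 9 and 47 bases before the start. Psmd10 lies at chrX:140956712-140956961 (minus strand) and Psmg4 at chr13:34162714-34162963 (plus strand). Each is written 5′ to 3′ on the gene's strand, and capitals mark the element or, in Psmd10, the CCAAT box in either orientation.
Psmb6: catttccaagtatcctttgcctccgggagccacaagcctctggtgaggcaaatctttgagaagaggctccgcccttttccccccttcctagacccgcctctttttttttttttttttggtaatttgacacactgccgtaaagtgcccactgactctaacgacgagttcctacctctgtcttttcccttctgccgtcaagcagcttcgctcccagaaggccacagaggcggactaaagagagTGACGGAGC
Psmb5: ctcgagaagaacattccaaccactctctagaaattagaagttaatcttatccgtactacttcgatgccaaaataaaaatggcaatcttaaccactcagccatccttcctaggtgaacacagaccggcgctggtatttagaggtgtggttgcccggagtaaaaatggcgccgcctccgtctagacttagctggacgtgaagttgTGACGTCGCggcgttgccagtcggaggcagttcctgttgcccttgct
Psmd10: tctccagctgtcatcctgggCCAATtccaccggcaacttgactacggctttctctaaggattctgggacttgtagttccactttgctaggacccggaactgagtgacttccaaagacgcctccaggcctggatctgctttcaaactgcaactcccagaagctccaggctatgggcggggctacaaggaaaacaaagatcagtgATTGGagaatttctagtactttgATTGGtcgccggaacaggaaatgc
Psmg4: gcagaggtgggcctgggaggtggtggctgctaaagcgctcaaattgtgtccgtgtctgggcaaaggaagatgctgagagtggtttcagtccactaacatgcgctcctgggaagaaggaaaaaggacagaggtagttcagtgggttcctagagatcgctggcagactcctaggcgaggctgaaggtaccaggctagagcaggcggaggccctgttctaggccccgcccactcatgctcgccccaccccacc
In wild type fat Psmb6, Psmd10 and Psmg4 rose and Psmb5 was not called.

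In knockout fat no proteasome gene passed between αGalCer and vehicle in the limma fit, and none of the 18818 genes did (0.0%). The members leaned the other way than in wild type. Of the 43 changes 35 were below 0, against 45.9% of all genes, with a median of -0.14 against 0.01. The median was -0.08 without knockout vehicle replicate 1 and -0.19 without replicate 3. All members were read on the same arrays, so a shift of 1 array can move many of them together. At an unadjusted p under 0.05, 7 members were lower and 0 higher, where 3.4% of all genes were lower and 3.41% higher. For 14 members every αGalCer array lay below every vehicle array, against 6.04% of all genes. The 7 were Psma1, Psma5, Psmb2, Psmb3, Psmd13, Psmd14 and Psmg1, and Psmg1 had the largest value, -0.32 ± 0.13 (adjusted p = 0.72, limma). For Psma5 the vehicle arrays read 8.38, 8.15 and 8.38 and the αGalCer arrays 7.97, 8.10 and 8.06, just below them. Array weights in the fit gave 3 calls, all lower: Psma1, Psmb2 and Psmd6. The share of all genes called in that fit was not read. Without the 3 arrays high in muscle genes, which left 1 knockout vehicle array, the median was -0.07.

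**Figure D3:**
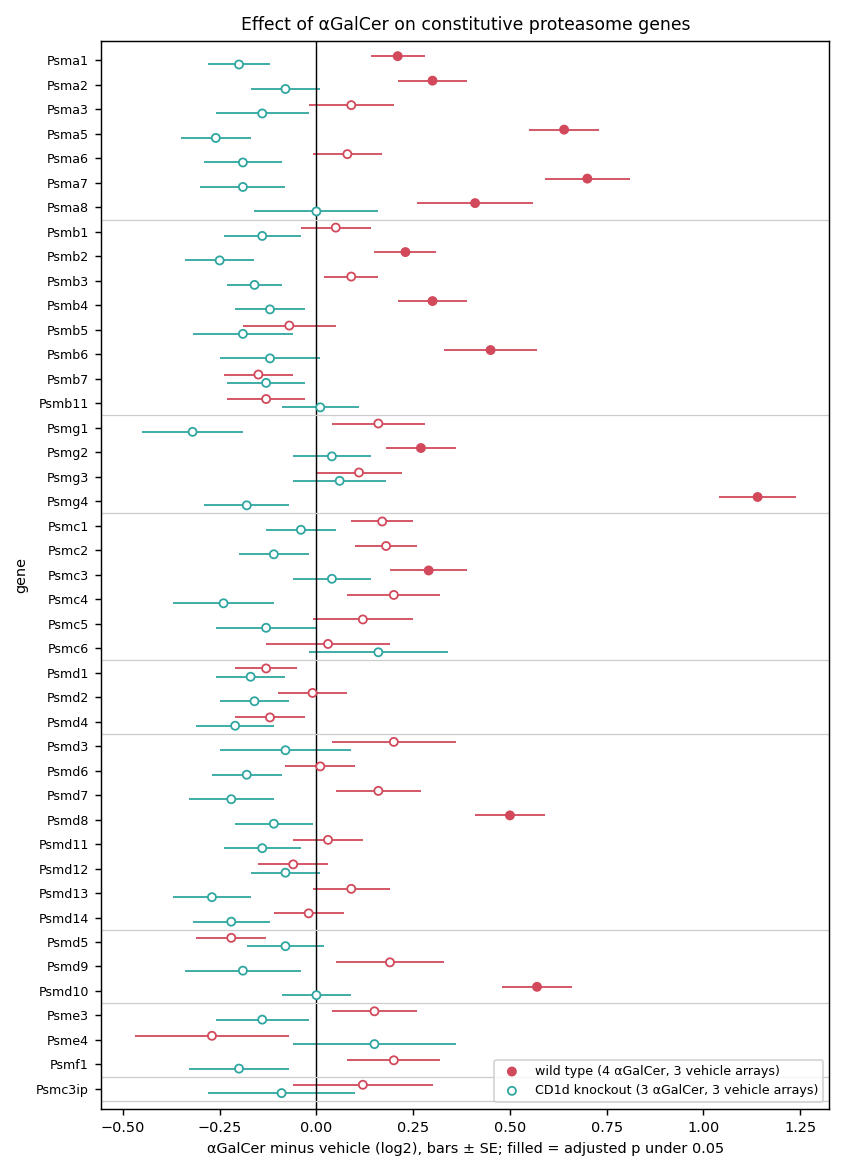
Change after αGalCer (log2, horizontal axis) of each of the 43 genes in wild type (red) and knockout (teal), with bars for the SE and filled points for an adjusted p under 0.05. The 13 filled points are all in wild type and all to the right of 0, and 35 of the knockout points lie to the left of 0.

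The effect of αGalCer itself differed between the genotypes for 10 of the 43 genes, always higher in wild type, and 13.9% of all genes differed in that direction and 14.3% in the other. Differences above 0 were seen in 38 members, against 45.9% of all genes. All 10 were among the 13 that rose in wild type: Psmg4 (difference 1.32 ± 0.15, adjusted p = 3.8e-05, limma), Psma5 (0.90 ± 0.13), Psma7 (0.89 ± 0.15), Psmd8 (0.61 ± 0.13), Psmd10 and Psmb6 (0.57 each), Psmb2 (0.48), Psmb4 (0.43), Psma1 (0.41) and Psma2 (0.38). For Psma8, Psmc3 and Psmg2 the difference did not pass. The difference contains the wild type change from the same arrays, so the place of the 10 among the 13 is not separate evidence. In Psma1 the vehicle means were 10.37 and 10.17 and the αGalCer means 10.58 and 9.97, so part of its difference of 0.41 is a value below 0 in knockout (-0.20 ± 0.08). In Psmd10 the knockout change was 0.00 ± 0.09, and the difference equals the wild type rise. Leaving out the 3 arrays high in muscle genes left 1 knockout vehicle array, and the median difference was 0.22, against 0.26 with all arrays. Leaving out the 3 high in epithelium genes left 1 wild type vehicle array, and the median was 0.26. The part of the mixed tissue, apart from that of fewer arrays, was not tested. Psmg4, Psma5 and Psma7 were called in all 24 alternatives.

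After vehicle, knockout and wild type fat did not differ in any of the 43 genes by the adjusted limma test, where 0.112% of all genes did. At an unadjusted p under 0.05, 9 members were lower in knockout and 0 higher, where 2.72% of all genes were lower and 3.97% higher. Differences below 0 were seen in 36 members, against 44.4% of all genes. Knockout vehicle replicates 1 and 2 were high in muscle genes. Without the 3 arrays high in these genes, replicate 3 was the only knockout vehicle array left. The median then moved from -0.12 to -0.23, a value that rests on 1 knockout array. The groups did not overlap for 11 members, all lower in knockout, where 3.8% of all genes were separated that way. The largest difference was that of Psmd14, which read 10.53, 10.36 and 10.20 in wild type and 9.79, 9.91 and 9.90 in knockout, which is -0.49 ± 0.10 (adjusted p = 0.108, limma). Psmc6 followed at -0.44 ± 0.18 (adjusted p = 0.652, limma). It read 8.86, 9.148 and 8.932 in wild type and 8.108, 8.855 and 8.646 in knockout. Knockout replicate 1, high in muscle genes, was thus its lowest array, and its highest knockout array lay only just below the wild type arrays. Psmd12, a lid subunit, differed by -0.41 ± 0.09 (adjusted p = 0.199, limma), with wild type at 9.13 to 9.42 and knockout at 8.78 to 8.95. Array weights in the fit called Psmd10 and Psmd14, both lower, and the share of all genes called in that fit was not read.

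After αGalCer, 30 of the 43 genes were lower in knockout than in wild type and 0 higher by the limma fit, where 19.2% of all genes were lower and 21.9% higher. The median was -0.40, against 0.05 for all genes, and 41 members were below 0, against 42.4% of all genes. All 3 knockout arrays lay below all 4 wild type arrays for 34 members, against 22.3% of all genes, and above them for 0 members, against 28.0%. Cell type markers differed between the same arrays: the macrophage list averaged 11.08 in wild type and 9.56 in knockout, the cytotoxic cell list 9.35 and 5.77, and the adipocyte list 10.48 and 12.05. Their part in the lower values was not tested. These comparisons share the αGalCer arrays of wild type and of knockout with those above, so they are not separate evidence. The 8 largest differences were those of Psmg4 (-1.25 ± 0.10, adjusted p = 6.63e-07, limma), Psma7 (-1.03), Psma5 (-0.91), Psmd10 (-0.84), Psma2 and Psmd14 (-0.70 each), Psmb6 (-0.68) and Psmc4 (-0.65). Psmg4 read 7.73, 7.75 and 7.58 in knockout, near its vehicle values in both genotypes.

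For 18 of these 30 genes the change in wild type had not passed. Psmd14 is an example, with means of 10.36 and 10.35 in wild type and 9.87 and 9.65 in knockout after vehicle and αGalCer. Psmc4, an ATPase, had means of 9.27 and 9.47 in wild type and 9.06 and 8.82 in knockout. By role, 6 of 7 α ring genes, 5 of 8 β ring genes, 5 of 6 ATPases, 7 of 8 lid genes, 2 of 3 other base subunits and 3 of 4 core chaperones were lower. Of the 3 chaperones of the cap only Psmd10 was, and of Psme3, Psme4 and Psmf1 none was. Psmb5 was lower in knockout (-0.40, 95% interval -0.67 to -0.13), and for Psmb7 the value was -0.17 (-0.36 to 0.03). Psmc3ip, the member by spelling alone, was lower too (-0.56 ± 0.18). The inducible genes had -1.90 (Psmb9), -1.86 (Psmb10) and -2.55 (Psmb8) in the same comparison.

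**Figure D4:**
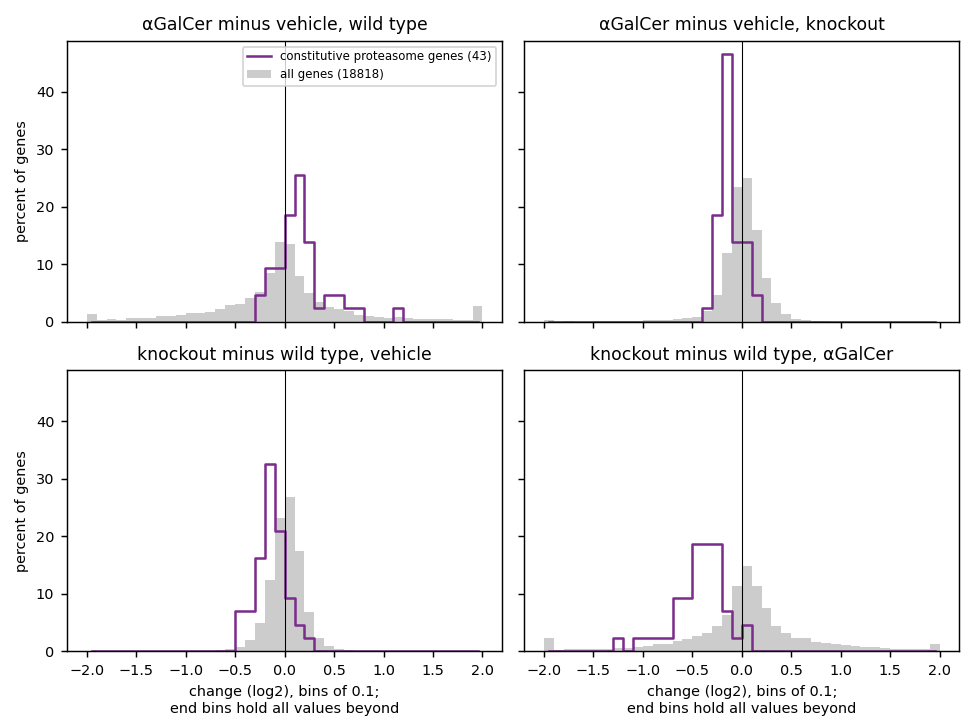
Share of genes (percent, vertical axis) by change (log2, bins of 0.1) for all 18818 genes (grey bars) and the 43 proteasome genes (purple line) in 4 comparisons. The members' medians are 0.15, -0.14, -0.12 and -0.40, in reading order, and those of all genes -0.02, 0.01, 0.02 and 0.05. The end bins hold all values beyond them.

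Averaged over the 43 genes as deviations from each gene's own mean, the wild type arrays read 0.11, 0.03 and -0.02 after vehicle and 0.28, 0.19, 0.12 and 0.24 after αGalCer. The knockout arrays read -0.01, -0.13 and -0.15 after vehicle and -0.24, -0.24 and -0.18 after αGalCer. The group means thus ran from the wild type αGalCer arrays at the top to the knockout αGalCer arrays at the bottom. The vehicle arrays of both genotypes overlapped, and the lowest wild type αGalCer array lay only just above the highest wild type vehicle array. The α ring alone was more widely spaced, at 0.30 to 0.39 in wild type after αGalCer and -0.31 to -0.29 in knockout. Over the 3 base subunits without ATPase the highest array was instead wild type vehicle replicate 1, at 0.28. Of the 43 genes 12 were called in none of the comparisons: Psmb1, Psmb7, Psmb11, Psmc6, Psmd4, Psmd5, Psmd9, Psmd11, Psme3, Psme4, Psmf1 and Psmg3.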

How the data were processed

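RNA of 13 arrays was read as the log2 expression values that the authors deposited per probe set, made with RMA per the submitters' processing notes (background correction, quantile normalisation, summary per probe set). Its version, the chip file and the build: not given in the sources used here. Of 35556 probe sets, 21218 had 1 gene symbol, 1881 several and 12457 none. Symbols were updated through Entrez identifiers with RefSeq (GRCm38.p6), which matched 21185. For each of 18818 genes the probe set with the highest mean was kept, and dim genes were kept. A single limma model (3.58.1, under R 4.3.3) was fitted to all arrays, with group means, 9 residual degrees of freedom and an intensity trend in eBayes. It gave 5 two-sided contrasts with Benjamini-Hochberg adjustment over all genes. A gene was called, and "rose" or "fell" used, at an adjusted p under 0.05. The script was tested on simulated data. ± after a change is its SE. Intervals are 95% intervals of that model. The number of arrays limits the precision. Members were read on the same arrays, so counts of members are not counts of separate tests.

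The members and lists were chosen with earlier results of these data known. Values are given for the called members of each role (up to 2 up and 2 down), the 8 largest calls of the other contrasts, inducible subunits and control genes; other members are examples chosen after their values were seen. Alternatives covered the variance model, normalisation, dim genes, probe sets, a replicate block and arrays left out.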

Additional observations from a re-analysis of the deposited data

Results flagged for a closer look

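The effect of αGalCer differed between wild type and knockout, by the interaction term of the limma fit, for 10 genes. It was always higher in wild type, and 13.9% of all genes differed in that direction. The differences, wild type minus knockout, were 1.32 for Psmg4, 0.90 for Psma5, 0.89 for Psma7, 0.61 for Psmd8, 0.57 for Psmd10, 0.57 for Psmb6, 0.48 for Psmb2, 0.43 for Psmb4, 0.41 for Psma1 and 0.38 for Psma2.

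Single arrays of the wild type αGalCer group stood apart for 2 of the 43 genes, where chance gives about 1 group in 20. For Psme4 the gap of replicate 1 to the nearest array was 0.94 of the range of the group, as it read 8.90 and the others 9.48 to 9.51. For Psmd10 the share was 0.84, with replicate 2 at 9.11 and the others at 8.83 to 8.87.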

How the results depend on the processing

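None of the 13 rises in wild type and none of the 10 called differences of effects changed sign in any alternative. The signs of changes that were not called were not followed gene by gene. Of the 13 rises in wild type 6 kept their call in every alternative run (Psma5, Psma7, Psmb6, Psmd8, Psmd10 and Psmg4). The other 7 lost it in at least 1: Psma1, Psmb2 and Psmc3 in 9 of 19, Psmg2 in 6 of 19, Psma8 in 6 of 18, Psmb4 in 2 and Psma2 in 1. Of the 10 differences of effects 3 kept their call in all 24 alternatives. Array weights gave 3 calls for αGalCer in knockout, 2 for genotype after vehicle and 21 for the difference of effects, against 0, 0 and 10. The share of all genes called was not read from the alternative fits, so these counts of members cannot be set against it. In wild type, array weights and repeated quantile normalization each also called 1 member, Psmd5, lower. The difference of effects had 5 calls without the 3 arrays high in muscle genes and 4 without the 3 high in epithelium genes, an alternative chosen after seeing the data that gave 7 calls in wild type. Leaving out 1 array at a time gave 8 to 11 calls in wild type (without αGalCer replicate 1, 9 higher and 2 lower), 0 to 0 calls in knockout, 7 to 12 for the difference, 0 to 0 for genotype after vehicle and 24 to 32 after αGalCer. The median change in wild type ran from 0.08 to 0.20 in these fits, with the lowest value without wild type vehicle replicate 3. Array numbers recur between groups, and the labels tie no number to a shared animal or day. Deviations of same-numbered arrays correlated from -0.20 to 0.48, over 0.1 in 5 of 18 pairs, and an array correlated best with its own number in 13 of 36 comparisons, so the numbers were not taken as pairs. The fit with this replicate block called 12 members in wild type (11 higher, and Psme4 lower), 0 in knockout, 12 for the difference (11 higher, 1 lower), 0 after vehicle and 28 after αGalCer. Fitting only the groups compared was not run for the difference, which uses all groups. The cause of these shifts was not tested. The number of arrays limits what can be called: changes near 0.2 passed in some genes and not in others.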
